A study of Mus musculus with 23 samples.

Results

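Of the genes measured, 10 genes of the interleukin-1 (IL-1) family were followed through mammary tumors of PyMT mice. They were chosen by name, with earlier results of these data known. The 10 are the cytokines Il1a, Il1b, Il18 and Il33, the receptor antagonist Il1rn, and the receptor genes Il1r1, Il1r2, Il1rl1, Il1rl2 and Il1rap. They are 10 of the 47643 genes in the deposited tables, and all 10 had reads. The study asked how loss of IL-38, an IL-1 family cytokine encoded by Il1f10, changes these tumors, by antibody and by gene deletion, and what blocking the γδ T cell receptor does on top of the deletion.

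All mice were females on a C57BL/6 background carrying the polyoma middle T oncogene transgene (PyMT), which drives carcinomas in the mammary epithelium. In the neutralization experiment, PyMT WT mice received human control IgG1 (IgG, n = 5) or an antibody against IL-38 (anti-IL-38, n = 6), 100 µg weekly for 5 weeks from the first tumor of 0.6 cm. In the blockade experiment, PyMT WT mice received Armenian hamster IgG (WT_IgG, n = 4). PyMT IL-38 KO mice received the same IgG (KO_IgG, n = 4) or an antibody against the γδ T cell receptor (KO_gdTCR, n = 4). Doses in this experiment were weekly for 5 weeks from 13 weeks of age, with a first dose of 500 µg and later doses of 200 µg. The KO_IgG and KO_gdTCR groups therefore share the deletion. The tumors were dissociated before their RNA was extracted. This RNA was sequenced from the 3′ ends of messenger RNAs, which gives the level of a gene but not its splice forms. Each library is labelled as a sample of its own. The p-values below measure the spread between these samples.

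Members of the IL-1 family are danger and injury signals, released by myeloid cells and by epithelium under stress. IL-1α and IL-1β bind IL-1R1, which recruits the accessory chain IL-1RAP and signals through MyD88 to NF-κB, while IL-1Ra occupies the same receptor without signaling and IL-1R2 binds IL-1 as a decoy. IL-33 signals through ST2 and the IL-36 cytokines through IL-36R, both with IL-1RAP, and IL-18 uses a receptor pair of its own. IL-38 has been proposed to bind IL-1R1, IL-36R or IL1RAPL1 as an antagonist, which makes this family its nearest molecular surroundings.

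The libraries held 6273049 to 15879164 reads on genes, and 5 of the 23 stood apart from the rest. These were KO_IgG replicate 4 and the 4 KO_gdTCR libraries, in which 1.34% to 2.03% of reads fell on processed pseudogenes, where the remaining 18 held 0.103% to 0.202%. In the same 5, 11.3% to 20.1% of reads lay on Gm42418, a gene that overlaps ribosomal RNA sequence, against 2.62% to 5.70%, and their depths of 6273049 to 8794202 reads were below the 10138353 to 15879164 of the others. γδ TCR blockade and this set of libraries cannot be told apart beyond KO_IgG replicate 4, so values resting on that library are given with and without it. The luminal epithelial markers summed to between 1538 and 4017 counts per 1000000 reads on genes (CPM), so epithelial RNA was present in each library. The deletion could not be checked by Il1f10 itself, which had 0 reads in all 23 libraries, wild type included, a count that allows up to 0.189 to 0.478 CPM depending on depth, for counting error only.

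The agonist Il1b and the antagonist Il1rn, both on chromosome 2, separated the 5 libraries from the rest in opposite directions, and their start regions are shown because the ratio of agonist to antagonist carries the pattern described below. RefSeq sequence (GRCm38.p6) runs from 250 bases before to 50 bases after a start site, 5′ to 3′ on the strand of the gene, for Il1b chr2:129371090-129371389 on the minus strand and for Il1rn chr2:24345121-24345420 on the plus strand. The latter is 1 of several annotated Il1rn starts. Capitals mark matches on either strand to the κB letters (GGG, any 5 bases, CC), to the AP-1 letters (TGANTCA), to the C/EBP letters (TT, any 2 bases, G, any base, AA) or to a TATA box (TATAAA), and overlapping matches merge into a longer run.
Il1b: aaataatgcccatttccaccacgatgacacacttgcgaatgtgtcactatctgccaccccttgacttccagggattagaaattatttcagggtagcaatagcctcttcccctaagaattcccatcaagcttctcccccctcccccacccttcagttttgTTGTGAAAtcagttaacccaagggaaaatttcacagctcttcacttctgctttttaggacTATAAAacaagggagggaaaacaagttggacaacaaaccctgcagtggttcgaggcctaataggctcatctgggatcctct
Il1rn: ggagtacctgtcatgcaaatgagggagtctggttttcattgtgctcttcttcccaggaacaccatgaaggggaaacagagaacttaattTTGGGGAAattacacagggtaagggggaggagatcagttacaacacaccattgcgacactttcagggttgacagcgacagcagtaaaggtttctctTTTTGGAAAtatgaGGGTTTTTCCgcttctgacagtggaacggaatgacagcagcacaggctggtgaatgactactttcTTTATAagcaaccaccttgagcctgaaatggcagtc
The Il1b window held 1 C/EBP match at -91 and 1 TATA match at -31, counted from the start site, and no κB or AP-1 match in these letters. The Il1rn window shown held 1 κB match at -51, 3 C/EBP matches at -161, -65 and -64, of which the last pair overlap, and 1 TATA match on the opposite strand at position 15 after the start. Matches differed between Il1rn starts. The window that begins at 24336610 held 2 κB matches at -54 and -4, 1 AP-1 match at -141, and no C/EBP or TATA match. Of all 32851 windows of this length, 50.8% held the κB letters, 7.81% the AP-1 letters, 40.7% the C/EBP letters and 13.6% the TATA letters, and the κB letters stood in 5 of the 15 windows of the members. These are letter matches and not measured binding.

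By GRCm38 annotation, the agonist genes Il1a (ENSMUSG00000027399, chr2:129299610-129309972) and Il1b (ENSMUSG00000027398, chr2:129364570-129371139) lie side by side on the minus strand. Il1rn (ENSMUSG00000026981, chr2:24336853-24351494, plus strand) lies farther off on the same chromosome. Il1r2, Il1r1, Il1rl2 and Il1rl1 follow each other on the plus strand of chromosome 1, from position 40074079 to 40465415, and Il18r1 begins directly after Il1rl1 at 40465552. Il18 lies on chromosome 9, Il33 on 19 and Il1rap on 16. An antisense gene, Il1bos, overlaps Il1b, and whether counting used the strand is not given in the sources used here, so reads of the pair may be mixed. Membrane and soluble ST2 come from Il1rl1 and were not separated.

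Il1b, the secreted agonist made mainly by activated myeloid cells, was highest in the KO_gdTCR libraries, at 80.5, 52.0, 52.8 and 38.8 CPM. The WT_IgG libraries held 21.2, 21.7, 13.1 and 17.2 CPM, and the KO_IgG libraries 4.60, 9.57, 13.9 and 40.1 CPM. The 4 KO_gdTCR values and KO_IgG replicate 4 lay above every other library of the series. In the neutralization experiment Il1b read 9.17, 14.6, 13.05, 13.01 and 2.31 CPM in IgG, and from 4.54 to 28.1 CPM with a median of 9.19 in anti-IL-38. These groups overlapped over most of their range.

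Il1rn, the antagonist, ran the other way in the same libraries. It read 39.0, 45.7, 57.2 and 39.3 CPM in KO_gdTCR against 70.6, 89.9, 93.3 and 47.3 CPM in KO_IgG, and 110, 136, 94.6 and 83.5 CPM in WT_IgG. KO_IgG replicate 4 again lay within the KO_gdTCR range. IgG held 176, 152, 116, 123 and 168 CPM, and anti-IL-38 held 90.5 to 144 CPM with a median of 114.9.

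Il1a, the second agonist of IL-1R1, which acts as an alarm signal from dying cells, had few reads. WT_IgG held 1.39, 3.51, 1.23 and 1.84 CPM, KO_IgG 0.792, 0.540, 0.882 and 0.232 CPM, and KO_gdTCR 0 CPM in 3 libraries and 0.341 CPM in replicate 4, from 3 reads. Every KO_IgG library lay below every WT_IgG library. IgG held 1.79, 2.38, 0.820, 1.35 and 1.86 CPM, and anti-IL-38 held 0.596 to 2.31 CPM with a median of 1.68, so the neutralization groups overlapped throughout.

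Il18 and Il33, cytokines of epithelium and stroma as well as of myeloid cells, varied less between groups. Il18 read 14.7, 14.5, 11.5, 10.6 and 10.4 CPM in IgG, and 4.34 to 11.8 CPM with a median of 8.64 in anti-IL-38. In normalized counts, 5 of the 6 anti-IL-38 libraries lay below every IgG library. In the blockade experiment Il18 read 16.7, 11.5, 11.98 and 12.9 CPM in WT_IgG, 8.87, 9.87, 10.5 and 14.6 CPM in KO_IgG, and 8.37, 15.9, 6.38 and 5.80 CPM in KO_gdTCR, with overlap between neighbors. Il33 lay between 8.99 and 29.8 CPM in 22 libraries, and IgG replicate 1 stood above them at 52.4 CPM.

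**Figure D1:**
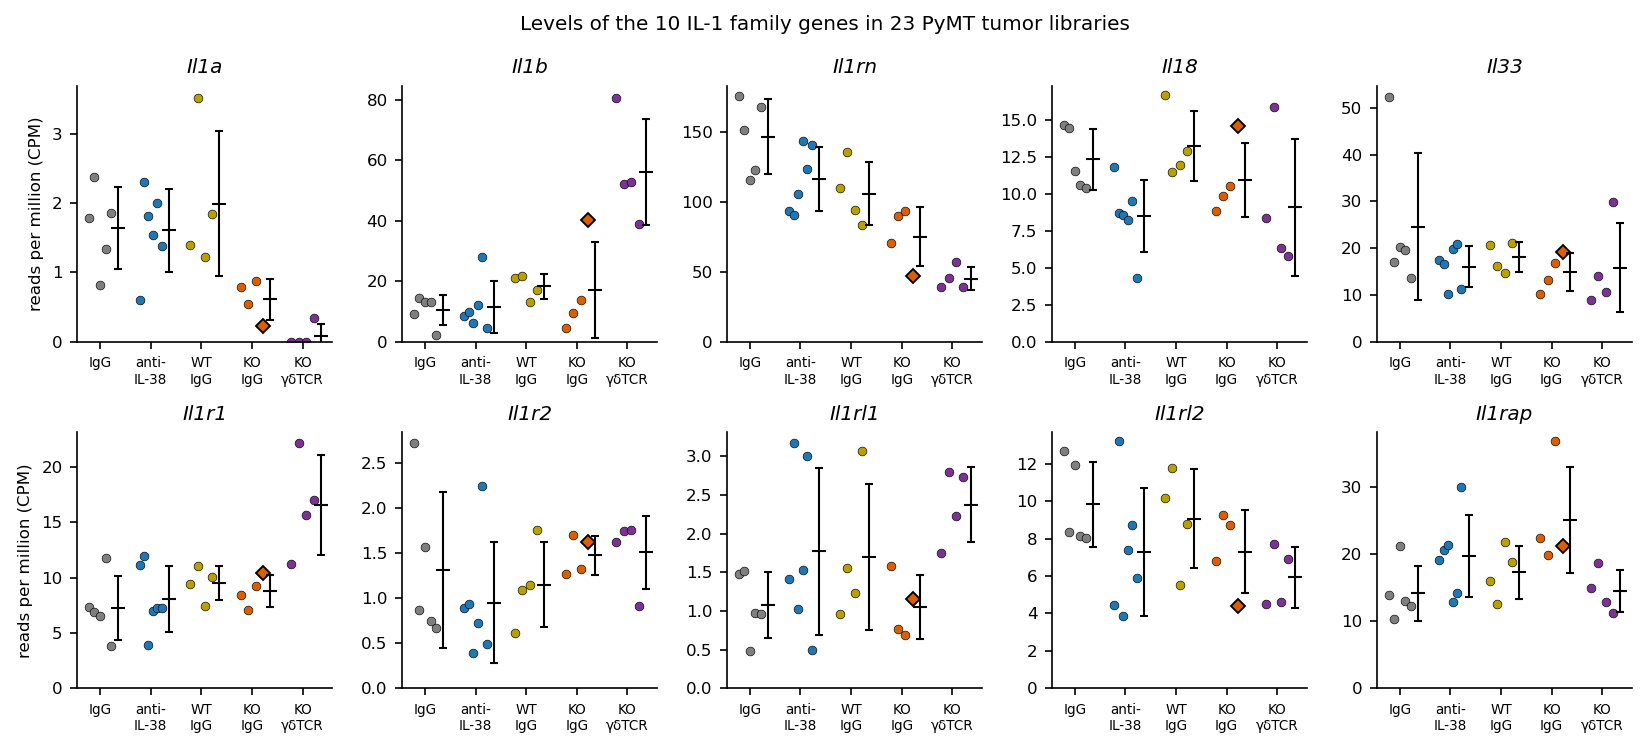
Level of each of the 10 genes in CPM (y axis) by group (x axis). Points are libraries, the diamond is KO_IgG replicate 4 and bars are mean ± SD. By group mean, Il1b, Il1r1 and Il1rl1 were highest in KO_gdTCR and Il1rn and Il1a lowest. For Il1rl1, single anti-IL-38 and WT_IgG libraries reached 3.18 and 3.07 CPM, above the KO_gdTCR maximum of 2.80 CPM. The diamond lay beside the KO_gdTCR points for Il1b, Il1rn and Il1a.

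Among the receptors, Il1r1, the signaling chain for IL-1, separated the KO_gdTCR libraries from KO_IgG. It read 11.2, 22.2, 15.6 and 17.1 CPM in KO_gdTCR and 8.40, 7.10, 9.26 and 10.4 CPM in KO_IgG. The groups did not overlap, and KO_IgG replicate 4 was the highest of its group. WT_IgG held 9.40, 11.1, 7.45 and 10.1 CPM, close to KO_IgG.

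Il1rl1, which encodes the IL-33 receptor ST2, had few reads and also did not overlap between these groups. It read 1.75, 2.80, 2.23 and 2.73 CPM in KO_gdTCR and 1.58, 0.771, 0.693 and 1.16 CPM in KO_IgG. In the WT_IgG group it ranged from 0.957 to 3.07 CPM, which overlaps both.

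Il1rap, the accessory chain shared by IL-1R1, ST2 and IL-36R, ran the other way, highest in KO_IgG. It read 22.4, 19.8, 36.7 and 21.2 CPM in KO_IgG, 15.9, 12.6, 21.7 and 18.8 CPM in WT_IgG, and 14.98, 18.6, 12.9 and 11.3 CPM in KO_gdTCR. KO_IgG replicate 3 was the highest library of the series. In the neutralization experiment Il1rap read 13.8, 10.3, 21.1, 13.01 and 12.3 CPM in IgG, against 12.8 to 29.99 CPM with a median of 19.8 in anti-IL-38, so the ranges crossed while all 6 anti-IL-38 libraries lay above the IgG median in normalized counts.

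Il1r2, the decoy, and Il1rl2, the IL-36 receptor, showed no separation between groups. Il1r2 lay between 0.396 and 2.72 CPM in all libraries, and Il1rl2 between 3.88 and 13.2 CPM. When the 5 groups were put in order of mean CPM for each gene, the difference between neighbors in that order exceeded their combined spread (mean ± SD not overlapping) in 5 of 40 neighboring pairs. These were, for Il1a, anti-IL-38 above KO_IgG and KO_IgG above KO_gdTCR; for Il1b and Il1r1, KO_gdTCR above WT_IgG; and for Il1rn, KO_IgG above KO_gdTCR. The other neighbors did not differ beyond their spread. In bulk tumors, fewer cells of a type and less RNA per cell cannot be told apart, which holds for every value here.

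On IL-38 neutralization, none of the 10 passed the adjusted threshold of 0.05 in a limma fit on log2(normalized count + 1), which 0 of 16002 genes tested did (0%). None of the 10 passed in edgeR or DESeq2, which called 0 and 75 of the 16002 genes. In limma, adjusted p-values of the 10 ran from 0.461 to 0.999. Of the 10, 4 had higher and 6 lower values, with a median log2 fold change of -0.14 against 0.0019 over all genes tested. At an unadjusted p under 0.05, 1 gene was lower and 0 were higher, against 4.91% and 5.61% of all genes. No gene had every anti-IL-38 value above or every value below IgG, against 0.4% and 0.644% of all genes.

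The gene past the unadjusted threshold was Il18, with 111 ± 30.7 normalized counts (SD, n = 6) on anti-IL-38 and 156 ± 25.0 (n = 5) on IgG. Its log2 fold change was -0.52 (SE 0.23) with a limma adjusted p of 0.461. Il1rap stood at 258 ± 82.9 against 179 ± 55.8, a log2 fold change of 0.51 (SE 0.24, adjusted p = 0.478). Il1rn stood at 1522 ± 298 against 1851 ± 320, a log2 fold change of -0.29 (SE 0.16, adjusted p = 0.519), and all 6 anti-IL-38 libraries lay below the IgG median. For Il1b the log2 difference was 0.18 with a 95% interval of -0.88 to 1.24, so neither a rise nor a fall of this agonist was resolved at this spread. For Il1a it was -0.0016 (95% interval -0.85 to 0.85) and for Il1r1 0.20 (95% interval -0.44 to 0.84). Il1rl1, Il1rl2, Il33 and Il1r2 had log2 differences between -0.47 and 0.58, with adjusted p-values of at least 0.551. The macrophage markers summed to 1964 to 2722 CPM on anti-IL-38 and 2311 to 3178 CPM on IgG, and the neutrophil markers to 342 to 475 and 467 to 691 CPM (90.3 to 130 and 93.2 to 236 CPM without Mmp8), and their part in the lower Il1rn and Il18 values was not tested.

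With deletion of Il1f10, KO_IgG against WT_IgG, again none of the 10 passed the adjusted threshold in limma, edgeR or DESeq2. In limma 1 of 16563 genes did (0.00604%), in edgeR 0 and in DESeq2 298. The limma adjusted p-values of the 10 ran from 0.304 to 0.893. Of the 10, 2 had higher and 8 lower values, with a median log2 fold change of -0.28 against 0.0053 over all genes. At an unadjusted p under 0.05, 1 was higher and 1 lower, against 6.73% and 5.4% of all genes. There was 1 gene with every KO value below every WT value and 0 with every value above, against 3.41% and 3.66% of all genes.

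That gene was Il1a, at 7.26 ± 3.46 normalized counts in KO_IgG and 23.5 ± 12.95 in WT_IgG (SD, n = 4 each). Its log2 fold change of -1.56 (SE 0.52) had a limma adjusted p of 0.304, and without KO_IgG replicate 4 it was -1.23 (adjusted p = 0.289). Il1rap stood at 299 ± 95.5 against 201 ± 44.0, a log2 fold change of 0.54 (SE 0.23, adjusted p = 0.386), and 0.60 without that library (adjusted p = 0.309). Both the antibody and the deletion thus gave Il1rap values of similar size, neither past the threshold. Il1rn stood at 894 ± 245 against 1242 ± 289, a log2 fold change of -0.49 (SE 0.23, adjusted p = 0.414), which was -0.30 without KO_IgG replicate 4. That library decided the value of Il1b, whose log2 difference was -0.49 (SE 0.52) with it and -1.05 (SE 0.34, adjusted p = 0.202) without it. The others, Il18, Il33, Il1r1, Il1r2, Il1rl1 and Il1rl2, had log2 differences between -0.57 and 0.43, with adjusted p-values of up to 0.893. The macrophage markers summed to 874 to 2123 CPM in KO_IgG and 1961 to 2551 CPM in WT_IgG, and their part in these values was not tested.

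Both experiments can be joined with the experiment as a term, as IL-38 inhibited (10 libraries of anti-IL-38 or KO_IgG) against control (9 libraries of IgG or WT_IgG). Here too, 0 of the 10 genes passed the adjusted threshold in limma, edgeR or DESeq2. Of all 16352 genes, 1 did in limma (0.00612%), 1 in edgeR and 221 in DESeq2. The limma adjusted p-values of the 10 ran from 0.193 to 0.960. Of the 10, 1 was higher and 2 were lower at an unadjusted p under 0.05, against 7.58% and 7.19% of all genes. These were Il1rap with a log2 fold change of 0.53 (SE 0.17, adjusted p = 0.193), Il1rn with -0.37 (SE 0.14, adjusted p = 0.232) and Il18 with -0.41 (SE 0.16, adjusted p = 0.248). For Il1rap 9 of 10 inhibited libraries lay above the control median, and 8 of 10 lay below every control for Il18. Without KO_IgG replicate 4 the log2 fold changes were 0.55, -0.29 and -0.48. The joined comparison holds the same libraries as the first pair and is not a further sample of tumors.

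Whether the antibody and the deletion acted differently was tested by an interaction term, which 1 of 16352 genes passed (0.00612%) and none of the 10. With all libraries the largest gap was for Il1a, with an antibody effect minus deletion effect of 1.56 on the log2 scale (SE 0.63, limma adjusted p = 0.590), and 1.23 (adjusted p = 0.682) without KO_IgG replicate 4. Without that library the gap for Il1b was 1.24 in place of 0.67 (adjusted p = 0.739) and Il1rl1 stood at 1.23 (adjusted p = 0.739), so the order of these 3 rests on it. The lower Il1a values of the deletion were thus not shown to differ from the antibody effect.

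**Figure D2:**
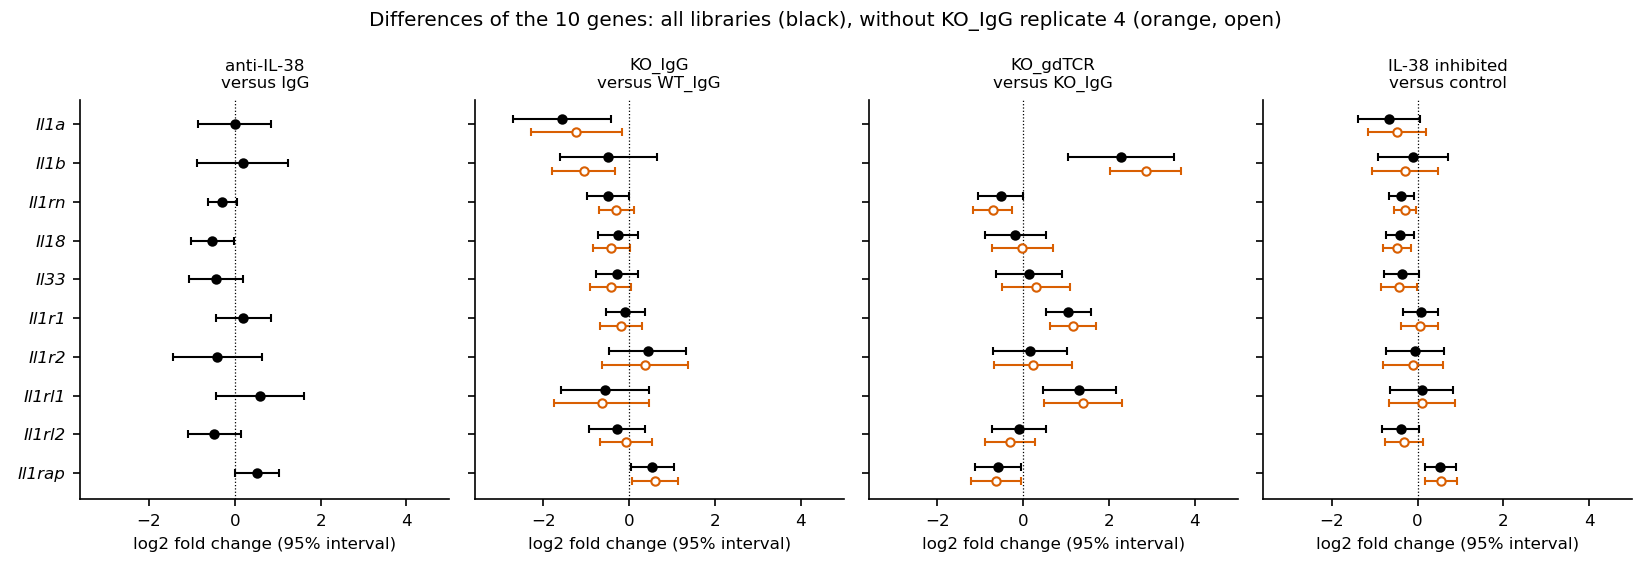
Log2 fold change with its 95% interval (x axis) for each gene (y axis) in the 4 comparisons. Black is all libraries and open orange is without KO_IgG replicate 4; Il1a is absent from the γδ TCR blockade panel, where it was below the count filter. Intervals for Il1b, Il1r1 and Il1rl1 lie above 0 in that panel, at 2.27, 1.05 and 1.31, while most others cross 0.

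Among the 10 genes, the largest single difference of the 4 comparisons was in Il1b, between KO_gdTCR and KO_IgG. Blockade and the set of 5 libraries cannot be told apart here beyond KO_IgG replicate 4. That library, without blockade, read 40.1 CPM for Il1b, inside the KO_gdTCR range of 38.8 to 80.5 CPM. The KO_IgG libraries are the control here and were the test group above, so the comparisons are not independent. Il1b stood at 582 ± 197 normalized counts in KO_gdTCR and 159 ± 153 in KO_IgG (SD, n = 4 each), a log2 fold change of 2.27 (SE 0.56) or 4.84-fold, with a limma adjusted p of 0.0657. Il1r1 stood at 169 ± 41.1 against 80.6 ± 15.7, a log2 fold change of 1.05 (SE 0.24, adjusted p = 0.0657), and Il1rl1 at 24.4 ± 4.14 against 9.58 ± 3.64, a log2 fold change of 1.31 (SE 0.39, adjusted p = 0.0844). In the other direction Il1rn stood at 472 ± 122 against 684 ± 185, a log2 fold change of -0.52 (SE 0.24, adjusted p = 0.229), and Il1rap at 149 ± 30.3 against 229 ± 74.9, a log2 fold change of -0.60 (SE 0.24, adjusted p = 0.185).

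Of the 9 genes tested, none passed the adjusted threshold in limma or edgeR, as did 0 of 16481 genes (0%), and adjusted p-values ran from 0.0657 to 0.871. At an unadjusted p under 0.05, 3 were higher and 2 lower, against 12.7% and 9% of all genes. Il1r1 and Il1rl1 (2 genes) had every KO_gdTCR value above every KO_IgG value and 0 had every value below, against 4.57% and 4.98%. The median log2 fold change of the 9 was 0.14, against 0.022 over all genes. In DESeq2, Il1r1 passed (log2 fold change 1.08, adjusted p = 0.00324), as 2.57% of all genes did in the higher direction. Il1a, with 3 reads in KO_gdTCR and 33 in KO_IgG, was below the filter, and a two-sided exact permutation test of its log2 values gave p = 0.0571, where 0.0286 is the smallest p that 4 against 4 can give.

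These calls turned on KO_IgG replicate 4. Without it, 4 of the 9 passed in limma: Il1b rose by 2.85 on the log2 scale (adjusted p = 0.000298), Il1r1 by 1.16 (adjusted p = 0.00823) and Il1rl1 by 1.39 (adjusted p = 0.0438), and Il1rn fell by 0.71 (adjusted p = 0.0407). In that fit 9.45% of all genes were called higher and 4.85% lower, against which the 3 higher and 1 lower among 9 are to be read. When instead a term marked the 5 libraries that stood apart, which leaves KO_IgG replicate 4 as the sole control of that set, Il1b differed by 0.54 (adjusted p = 0.863), Il1r1 by 0.73 (adjusted p = 0.677), Il1rl1 by 1.06 (adjusted p = 0.723) and Il1rn by 0.033 (adjusted p = 0.991). Il18, Il33, Il1r2 and Il1rl2 had log2 differences between -0.18 and 0.16 with all libraries, none past either threshold.

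**Figure D3:**
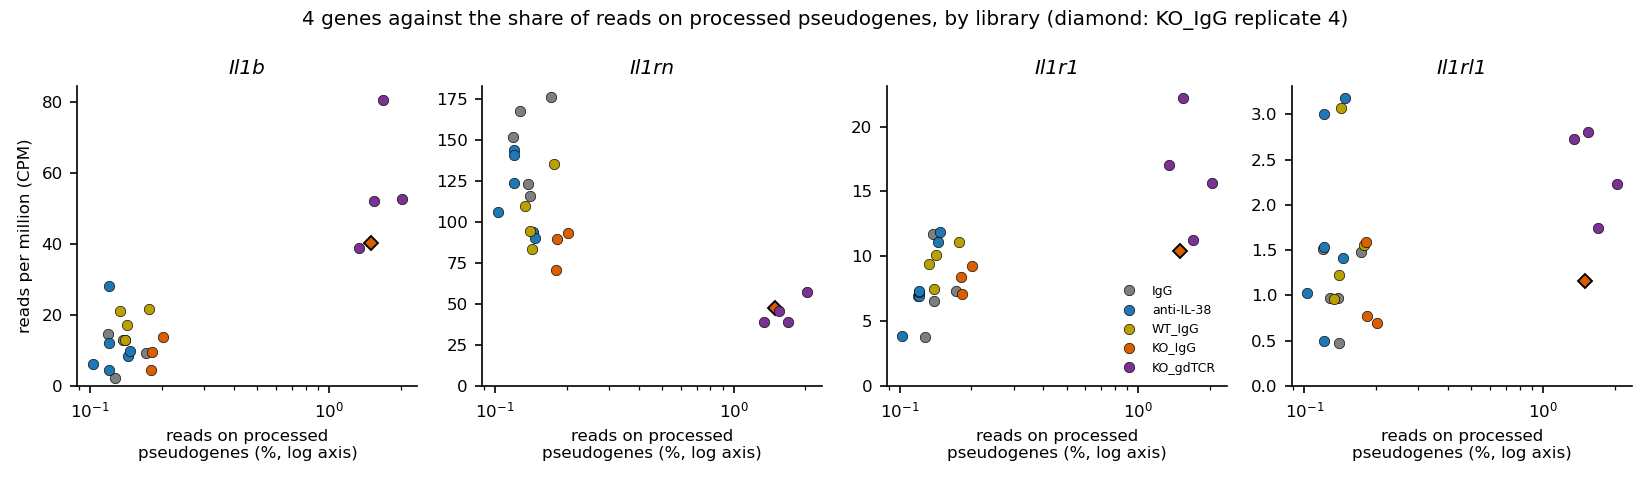
CPM of Il1b, Il1rn, Il1r1 and Il1rl1 (y axis) against the percent of reads on processed pseudogenes (x axis, log scale), 1 point for each of the 23 libraries, colored by group. The 5 libraries at 1.34% to 2.03% hold the highest Il1b (38.8 to 80.5 CPM) and the lowest Il1rn (39.0 to 57.2 CPM), KO_IgG replicate 4 included.

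For 3 of the 10 genes, 1 higher and 2 lower, the 5 libraries that stood apart did not overlap the other 18, as held for 4.96% (higher) and 5.71% (lower) of the 16463 genes with a mean of at least 5 reads. Il1b ran from 38.8 to 80.5 CPM in the 5 and from 2.31 to 28.1 CPM in the 18, Il1rn from 39.0 to 57.2 against 70.6 to 176 CPM, and Il1a from 0 to 0.341 against 0.540 to 3.51 CPM. KO_IgG replicate 4, which had no γδ TCR antibody, lay on the side of the KO_gdTCR libraries for all 3. For Il1r1 and Il1rl1, KO_IgG replicate 4 read 10.4 and 1.16 CPM, below every KO_gdTCR library. For Il1r1 it lay between the lowest KO_gdTCR value of 11.2 CPM and the 7.10 to 9.26 CPM of KO_IgG replicates 1 to 3. For Il1rl1 it lay within the 0.693 to 1.58 CPM of those replicates. Macrophage markers were lower in the same 5 libraries, though C1qa and Mrc1 overlapped the other 18. The 8 macrophage markers summed to 678 to 1086 CPM in KO_gdTCR and 874 CPM in KO_IgG replicate 4 against 1961 to 2551 CPM in WT_IgG. Of the 8 neutrophil markers, Mmp8, a collagenase, read 0 to 7.31 CPM in the 5 and 198 to 574 CPM in the 18. The other 7 summed to 94.3 to 148 CPM in the 5, within the 90.3 to 236 CPM of the 18. None of the 8 genes of either list was at 0 in every library, and the part of these cells, or of the library set, in the differences of the IL-1 family genes was not tested.

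The balance of agonist and antagonist was read within each library as the log2 ratio of Il1rn to Il1b, with 1 normalized count added to each. It was -0.27 ± 0.53 (SD, n = 4) in KO_gdTCR, where the 4 libraries ran from -1.05 to 0.12, that is from 0.484 to 1.08 Il1rn counts for each Il1b count. It was 2.53 ± 0.26 in WT_IgG and 2.53 ± 1.60 in KO_IgG, or 3.29 ± 0.59 without replicate 4, which alone read 0.24. Every KO_IgG and WT_IgG library was above every KO_gdTCR library by this measure, KO_IgG replicate 4 by the least. In the neutralization experiment it was 4.03 ± 1.26 on IgG and 3.56 ± 0.93 on anti-IL-38, a gap smaller than the spread.

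The decoy ratio, Il1r2 to Il1r1, averaged -2.50 on IgG, -3.11 on anti-IL-38, -3.02 in WT_IgG, -2.50 in KO_IgG and -3.37 in KO_gdTCR, with SDs of 0.33 to 0.92, and decoy counts were below receptor counts in every library. The ratio of Il18bp, which encodes a secreted binder of IL-18, to Il18 was 0.92 ± 0.53 on IgG and 1.80 ± 0.64 on anti-IL-38, and 0.84, 0.98 and 1.39 in WT_IgG, KO_IgG and KO_gdTCR. The 2 neutralization groups overlapped in part, from 0.18 to 1.45 and from 1.30 to 3.02. These ratios are descriptions and were not tested.

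**Figure D4:**
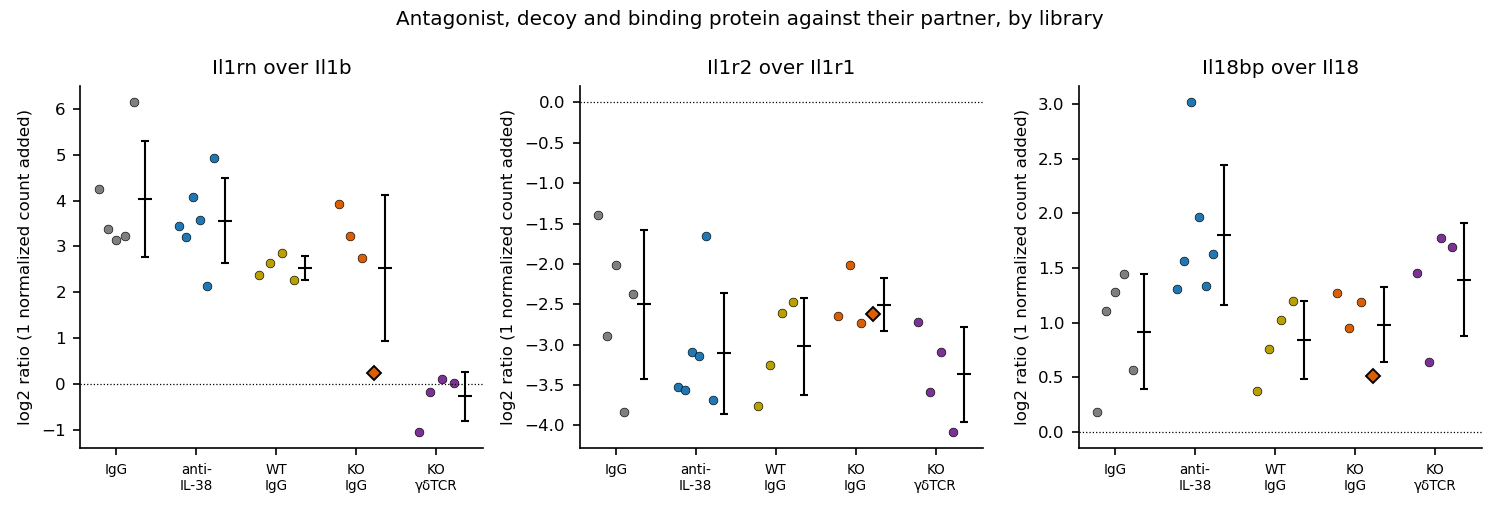
Log2 ratio per library (y axis) of Il1rn to Il1b, Il1r2 to Il1r1 and Il18bp to Il18, by group (x axis), with 1 normalized count added to each gene. The 4 KO_gdTCR libraries lie at or near 0 for Il1rn to Il1b, from -1.05 to 0.12, with KO_IgG replicate 4 at 0.24.

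The other genes of the family add the receptors and ligands not among the 10. Il36a and Il36b, IL-36 agonists, had reads in 2 libraries each, and Il1rapl1, a proposed IL-38 receptor, in 3. Il36g, the third IL-36 agonist, read 0.216 to 1.41 CPM on IgG and 0.521 to 0.888 CPM on anti-IL-38, and 0 to 0.117 CPM in the 5 libraries that stood apart, KO_IgG replicate 4 included, below the 0.216 to 1.41 CPM of the other 18. Il18r1, the IL-18 receptor chain that adjoins Il1rl1, read 5.99, 52.0, 19.9 and 19.6 CPM in KO_gdTCR against 3.96, 4.94, 7.05 and 6.84 CPM in KO_IgG. Only KO_gdTCR replicate 1 lay within the KO_IgG range, and the log2 fold change was 1.91 (SE 0.53, limma adjusted p = 0.0722), rising to 2.03 (adjusted p = 0.0332) without KO_IgG replicate 4. Its partner Il18rap, by contrast, differed by -0.10 (adjusted p = 0.902). Trdc, a constant gene of the γδ T cell receptor, read 0 to 2.35 CPM over all 23 libraries, with 0.319 to 1.40 CPM in KO_gdTCR and 0 to 0.951 CPM in KO_IgG, so the blockade could not be followed by the transcript of its target.

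Downstream of the receptors, 16 genes of MyD88, IRAK and NF-κB signaling were tested and none passed the adjusted threshold in any comparison. On IL-38 neutralization 1 was higher (Irak2, log2 fold change 0.48, adjusted p = 0.433) and 1 lower (Tab2, -0.27, adjusted p = 0.425) at an unadjusted p under 0.05, against 5.61% and 4.91% of all genes. With the deletion 3 were higher and 2 lower, against 6.73% and 5.4% of all genes, among them Tollip, an inhibitor of IRAK1, at 0.56 (adjusted p = 0.324) and Rela, an NF-κB subunit, at -0.34 (adjusted p = 0.358). On γδ TCR blockade 1 was lower, Tollip at -0.64 (adjusted p = 0.132), against 9% of all genes. Both Tollip values include KO_IgG replicate 4, which read 66.5 CPM. KO_IgG replicates 1 to 3 read 40.0 to 49.6 CPM and KO_gdTCR 19.2 to 37.5 CPM. The median of the 16 lay between -0.07 and 0.09 in the 4 comparisons.

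The inflammasome is the complex in which caspase-1 cleaves pro-IL-1β and pro-IL-18 into active cytokine. The 9 genes listed for it all had lower values in KO_IgG than in WT_IgG, where 50.6% of all genes tested had higher values. Their median log2 fold change was -0.38, and 4 of 9 passed an unadjusted limma p of 0.05. These counts include KO_IgG replicate 4. In CPM that library lay below KO_IgG replicates 1 to 3 for Aim2, Gsdmd, Nlrp3 and Nek7. It lay within their range for Casp1, Casp4, Nlrc4 and Pycard, and above it for Mefv. The lowest log2 fold change of the 9 was that of Aim2, a DNA sensor, at -0.97 (limma adjusted p = 0.365). Next was Gsdmd, the pore protein through which IL-1β leaves the cell, at -0.88 (adjusted p = 0.304). Without KO_IgG replicate 4 these were -0.49 (adjusted p = 0.279) and -0.60 (adjusted p = 0.272), and over all genes 5.4% were lower at the unadjusted threshold. On γδ TCR blockade 5 of the 9 were lower and 1 higher at that threshold, against 9% and 12.7% of all genes, including Nlrp3, a sensor that starts the assembly, at -1.81 (adjusted p = 0.135) and Gsdmd at -0.999 (adjusted p = 0.126). Without KO_IgG replicate 4 Nlrp3 fell by 2.45 (adjusted p = 0.0029), in a fit that called 4.85% of all genes lower. That library, which had no blockade, read 0.580 CPM for Nlrp3, inside the KO_gdTCR range of 0.319 to 0.934 CPM, while the other 18 libraries held 2.54 to 10.9 CPM. The summed macrophage markers were lower in the same libraries, and the part of this in the difference was not tested.

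Of 12 NF-κB target genes tested on γδ TCR blockade, 3 were higher and 0 lower at an unadjusted p under 0.05, against 12.7% and 9% of all genes. Nfkbia, the inhibitor that NF-κB induces against itself, differed by 0.71 (limma adjusted p = 0.0666), Nfkbiz, a cofactor for a second wave of targets, by 0.98 (adjusted p = 0.117) and Ccl20, a chemokine, by 2.58 (adjusted p = 0.148). Without KO_IgG replicate 4 all 3 passed, with adjusted p-values of 0.00515, 0.00231 and 0.00165, where 9.45% of all genes were called higher. That library lay within the KO_gdTCR range for all 3, at 344.6 CPM in 344.3 to 419 for Nfkbia, 38.1 in 26.5 to 39.7 for Nfkbiz and 1.62 in 0.569 to 1.75 for Ccl20. With the deletion Ptgs2, the inducible prostaglandin synthase, stood at 147 ± 145 normalized counts in KO_IgG and 31.2 ± 6.42 in WT_IgG. The log2 fold change was 1.78 (limma adjusted p = 0.256, and 0.00799 in DESeq2), or 1.20 in limma without KO_IgG replicate 4. DESeq2 called 298 of 16563 genes in this comparison and was not run without that library. KO_IgG replicate 4 read 29.7 CPM for Ptgs2, where KO_IgG replicates 1 to 3 read 4.44 to 9.32 CPM. The 5 libraries that stood apart held 12.9 to 29.7 CPM and the other 18 held 0.932 to 9.32 CPM. On IL-38 neutralization it stood at 64.2 ± 24.4 against 38.3 ± 38.5, a log2 fold change of 1.09 (adjusted p = 0.460), and Saa3, an acute phase gene, was lower in both, at -0.36 (adjusted p = 0.434) and -0.55 (adjusted p = 0.375).

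The genes most like each of the 10 were sought over the 19 libraries of the larger table, after subtracting group means, by Pearson r of log2(normalized count + 1). These are descriptions over 19 libraries, in which depth and tumor makeup are shared by every gene, and the genes named are the highest of all those tested. The 19 include KO_IgG replicate 4, and r was not computed without it. Il1rn had the closest companions, Atg7 (r = 0.936), Fgr (r = 0.935) and Zeb2os (r = 0.931). Il1b was nearest to Arl4a (0.857), Accs (0.850) and Pak1 (0.836), and Il1r1 to Hoxc6 (0.867), Ceacam20 (0.836) and Pla2g4a (0.826). Il33 was nearest to AW549877 (0.870), Il18 to A530040E14Rik (0.863), Il1rl2 to Rchy1 (0.856), Il1rl1 to Gm16485 (0.843), Il1rap to Atl2 (0.826), Il1a to Zscan25 (0.820) and Il1r2 to Gm17250 (0.820).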

How the data were processed

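QuantSeq 3′ libraries of 23 tumors were read for 75 cycles. The deposited tables, 19 and 8 libraries with the 4 KO_IgG libraries in both, hold a signal that the authors made by dividing read counts per gene by a size factor per library. Per the labels, the submitters' processing notes name STAR, HTSeq, DESeq2 and GRCm39, with no versions. Whole reads were recovered from the steps of the values (100% of values whole within 0.0001%) and gave counts per 1000000 reads (CPM) and the counts for edgeR and DESeq2.

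Groups followed the labels. Genes averaging 5 or more normalized counts over the fitted libraries were tested with limma 3.58.1 (R 4.3.3, eBayes with trend, two-sided) on log2(normalized count + 1), and p-values were adjusted by Benjamini-Hochberg over all genes tested. The smaller table was used for γδ TCR blockade. The main test on recovered reads was limma, as fixed for normalized values, with edgeR 4.0.16 and DESeq2 1.42.0 as alternatives. Scripts were tested on simulated data. The 10 genes and the gene lists were chosen with earlier results of these data known. Genes named beyond the 10 are, per list, those past the threshold or up to 4 with the smallest p, and the 3 of highest r for each of the 10. Replicate numbers do not pair the samples (correlations of -0.169 to 0.0746). Libraries differed from each other beyond sampling noise in every pair. Gene positions are from GENCODE M21 on GRCm38, joined by Ensembl ID. The column of KO_gdTCR replicate 3 carries an extra "rep" in its name. Detection limits cover counting error only, while the 95% intervals of fold changes are limma's and cover the spread between samples, and CPM were not tested across tables.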

Additional observations from a re-analysis of the deposited data

Results flagged for a closer look

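In 6 of the 50 sets of values formed by 10 genes in 5 groups, the highest or lowest library lay far from the others by Dixon's criterion, which chance meets in about 1 of 20 sets. Il1a read 0.341 CPM, from 3 reads, in KO_gdTCR replicate 4 while the other 3 libraries of that group had 0. Any nonzero value would meet the criterion there, so the rate of about 1 in 20 does not apply to this set. Il1b read 28.1 CPM in anti-IL-38 replicate 5 against 4.54 to 12.01 CPM in the other 5. Il33 read 52.4 CPM in IgG replicate 1 against 13.7 to 20.2 CPM. Il1r2 read 2.25 CPM in anti-IL-38 replicate 5 against 0.396 to 0.938 CPM, and 0.910 CPM in KO_gdTCR replicate 4 against 1.62 to 1.75 CPM. Il1rap read 36.7 CPM in KO_IgG replicate 3 against 19.8 to 22.4 CPM.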

How the results depend on the processing

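Over all genes, counts past the threshold depended on the tool and on single libraries. For anti-IL-38 against IgG they were 75 with DESeq2, 1 with the replicate block, and 0 to 6 with a library left out, the 6 without IgG replicate 3. For KO_IgG against WT_IgG they were 298 with DESeq2, 0 with edgeR, 0 with the replicate block, and 0 to 7 with a library left out (4 without KO_IgG replicate 1, 7 without KO_IgG replicate 4, 7 without WT_IgG replicate 3). For γδ TCR blockade they were 1030 with DESeq2 and 0 to 2357 with a library left out, the 2357 without KO_IgG replicate 4. For both experiments joined they were 221 with DESeq2, 0 with a pseudocount of 5, without a filter on low values, with the replicate block or without the experiment term, and 0 to 119 with a library left out (119 without IgG replicate 3, 4 without anti-IL-38 replicate 5 or WT_IgG replicate 3, 2 without WT_IgG replicate 4, and 1 or 0 without any other). Of the 9 genes tested on γδ TCR blockade, 1 passed with DESeq2 and 0 to 4 with a library left out. At an unadjusted p under 0.05, the split of higher and lower genes moved from 1115 and 895 to 1469 and 750 with edgeR for the deletion, from 2086 and 1484 to 1348 and 1730 with edgeR for the blockade, and from 1240 and 1175 to 1037 and 1526 with TMM rescaling for the joined experiments. The cause was not tested.

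Some differences changed sign, among them Il1rn on γδ TCR blockade, from -0.52 to 0.033 as given next. Il1a on anti-IL-38 read 0.049 with edgeR, 0.052 with DESeq2, 0.00745 with a pseudocount of 5, 0.011 with TMM rescaling and 0.024 with the replicate block. Il1b in the joined experiments read 0.061 with edgeR, 0.073 with DESeq2 and 0.0067 with the block, and Il1r2 read 0.039 with the block. With the term for the 5 libraries that stood apart, chosen after seeing the data, Il1rn read 0.033, Il33 -0.33, Il1r2 -0.033 and Il1rl2 0.49 on γδ TCR blockade. With a library left out, the range on anti-IL-38 was -0.20 to 0.25 for Il1a, -0.29 to 0.40 for Il1b and -0.0037 to 0.38 for Il1r1; for the deletion -0.20 to 0.023 for Il1r1; for the blockade -0.47 to 0.020 for Il18, -0.18 to 0.35 for Il33 and -0.31 to 0.011 for Il1rl2; and for the joined experiments -0.38 to 0.11 for Il1b, -0.040 to 0.17 for Il1r1, -0.18 to 0.13 for Il1r2 and -0.065 to 0.26 for Il1rl1. The block changed no other call. With a library left out, 422 values kept their direction and side of the threshold, 26 changed sign and 4 passed it; with the other alternatives these were 308, 13 and 1. Il1a, Il1r2 and Il1rl1 had 335 to 416 reads over all libraries, which limits what their differences can show.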
